A study of Mus musculus with 42 samples.

Results

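The genes of glucose entry, glycolysis and the pentose phosphate pathway were followed in sorted mouse microglia. The set holds 32 genes chosen by name for their textbook roles: 3 glucose transporters, 3 hexokinases, 10 genes of upper glycolysis, 6 of lower glycolysis, 2 lactate dehydrogenases, 2 glycerol-3-phosphate dehydrogenases, 4 pentose phosphate enzymes and 2 phosphoglucomutases of the glycogen branch. They were chosen with earlier results of these data known. All 32 were found among the 24421 genes of the whole-brain files and among the 53546 genes of the cortex and hippocampus table, and all 32 passed the filter on low counts in every fit, so that no member was left untested.

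Microglia were sorted by flow cytometry as CD11b+ CD45lo cells from C57BL/6 mice, and their RNA was sequenced in 42 libraries of 11 groups. Whole-brain microglia came from wild-type mice aged 6 to 12 weeks, whose titles carry the marks 8w and F, that carried a specific-pathogen-free flora (SPF, n = 3) or were germ-free (GF, n = 5). Cortical microglia came from wild-type mice aged 16 weeks that were SPF, GF, or GF and given acetate, a short-chain fatty acid made by gut bacteria (n = 4 each). Hippocampal microglia came from mice aged 16 weeks in these 3 states, both of wild type (n = 4 SPF, 3 GF and 4 acetate) and of the 5xFAD genotype (n = 4 SPF, 3 GF and 4 acetate). 5xFAD mice carry transgenes that lead to amyloid deposits, driven by the neuronal Thy1 promoter, so the amyloid is made by neurons and not by the microglia measured. Acetate was given for 4 weeks in some animals and 8 weeks in others, and the labels do not place these times by library. No acetate group with a flora was in the design, so every acetate effect is an effect in germ-free mice.

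Total counts per library ran from 19329300 to 25366400 in whole brain, 15790400 to 23860500 in cortex and 5743890 to 22532400 in hippocampus. Libraries of the cortex and hippocampus table are named here by genotype and the number in their label. Levels are given as CPM, the count of a gene scaled to a fixed library total. The summed level of 10 microglial markers was 42100 to 85100 CPM in every library, with none of the 10 at 0. Neutrophil markers (11 listed, 10 of them in the whole-brain files) summed to over 100 CPM in whole-brain GF library 4 (188 CPM), 5xFAD SPF library FAD_2153 (281 CPM) and wild-type hippocampal GF library WT_532 (246 CPM). The library labelled FAD_2152 (5xFAD, SPF) stood apart from the other 3 of its group: Cst7, a protease inhibitor of plaque-associated microglia, was 13.3 CPM there, within the wild-type SPF range of 10.1 to 22.7 CPM, and Apoe was 441 CPM where the group reached 6300 CPM. App in FAD_2152 was 191 CPM, with up to 219 CPM in its group and 138 to 160 CPM in wild-type SPF libraries. Wild-type acetate libraries reached 218 CPM of App. Whether the label of FAD_2152 is right was not tested. Hippocampal GF library WT_530 and acetate library WT_518 had few genes detected (17750 and 16607). Results that rest on these libraries are given with and without them.

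Glucose enters microglia through facilitative transporters of the Slc2a family and is trapped by hexokinases as glucose-6-phosphate. That intermediate feeds glycolysis, which makes pyruvate and lactate, the pentose phosphate pathway, which makes NADPH and ribose, and, through phosphoglucomutase, glycogen. Microglia and other macrophages are known to raise glycolysis when they are activated, and hypoxia-inducible factor 1 is a known activator of many of its genes.

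The order of the members was first described as CPM per kilobase of annotated exon, a scale on which genes can be compared with each other. In cortical SPF microglia, the 5 members with the highest level per kilobase were Ldhb (217, range over the 4 libraries 206 to 234), Aldoa (87.1, 76.3 to 93.5), Taldo1 (83.8, 77.8 to 90.7), Ldha (53.8, 49.5 to 58.3) and Hk3 (45.9, 35.6 to 64.9). Ldhb, the lactate dehydrogenase subunit that favours conversion of lactate to pyruvate, lay above every other member without overlap of the libraries. Aldoa, the aldolase that splits fructose-1,6-bisphosphate, and Taldo1, the transaldolase of the pentose phosphate pathway, overlapped each other and were not separated by their spread. Hk3, the hexokinase typical of myeloid cells, overlapped Ldha. In hippocampal wild-type SPF microglia the order of the first 4 was the same, with Gapdh as the fifth (50.1, 42.6 to 54.9). At the low end of cortical SPF microglia stood Pfkp (0.0955), Aldoc (0.151), Eno2 (0.165) and Slc2a6 (0.595), of which Aldoc is the aldolase typical of astrocytes and Eno2 the enolase typical of neurons. Exon lengths were the union of all annotated exons of a gene, so a long minor isoform lowers the value.

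**Figure D1:**
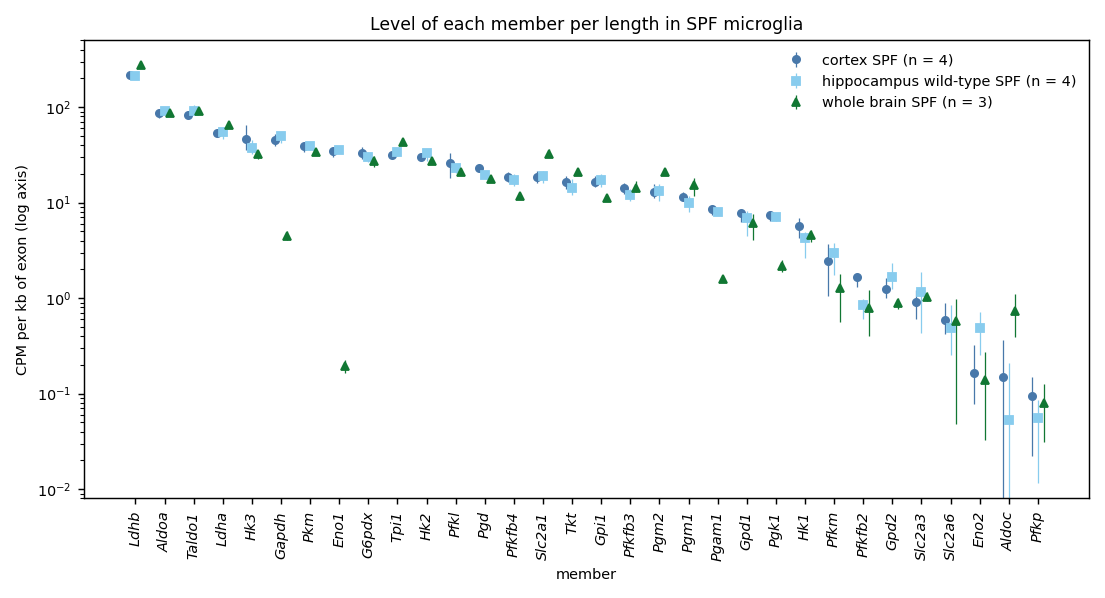
Level of each of the 32 members as CPM per kb of annotated exon (vertical log axis) in SPF microglia of cortex, wild-type hippocampus and whole brain, with members ordered by the cortical mean. Symbols are means and vertical lines run from the lowest to the highest library, with a library at 0 drawn to the lower edge; Ldhb is highest in all 3 tissues, and Gapdh, Eno1, Pgk1 and Pgam1 lie lower in whole brain than in the other tissues.

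The whole-brain files gave 4 members of lower glycolysis far below the other table. Gapdh, the glyceraldehyde-3-phosphate dehydrogenase, was 18.4 CPM ± 2.11 (SD, n = 3) in whole-brain SPF microglia and 188 CPM ± 24.4 (SD, n = 4) in cortical SPF microglia. Eno1, the enolase of most cells, was 1.04 CPM ± 0.167 (SD, n = 3) against 186 CPM ± 18.4 (SD, n = 4). Pgk1, the phosphoglycerate kinase, was 4.89 CPM ± 0.707 (SD, n = 3) against 16.5 CPM ± 1.72 (SD, n = 4), and Pgam1, the phosphoglycerate mutase, was 3.14 CPM ± 0.201 (SD, n = 3) against 16.9 CPM ± 1.57 (SD, n = 4). The files were made separately, mice and tissue differ, and so does the level of the sex-linked genes: Xist was 95.1 to 192 CPM in whole brain with Ddx3y at 0, while Ddx3y was 64 to 150 CPM and Xist at most 3.37 CPM in the other libraries. In addition, all 4 genes have near-identical copies in the genome among which reads can be split. The copy Eno1b was 0.204 to 0.881 CPM in whole brain and 1.87 to 6.92 CPM in the other libraries. The levels of the 4 members therefore carry no test. Their counts are uncertain in every table, since how reads shared with such copies were counted is not given in the sources used here. Pkm, by contrast, was 170 CPM ± 6.33 (SD, n = 3) in whole brain and 198 CPM ± 20.2 (SD, n = 4) in cortex.

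Which members depend on the gut flora was asked by comparing GF with SPF microglia, and whether acetate moves them was asked by comparing acetate-treated GF with untreated GF microglia. The main test was edgeR's quasi-likelihood test with Benjamini-Hochberg adjustment over all genes tested, and a member was called at an adjusted p under 0.05. Over all 18 comparisons of the design, edgeR called 15 members at least once and 17 never, in 21 of 576 tests and in 6 of the 18 comparisons. In cortex, 4 members were called in GF against SPF, where 1.71% of all genes were. Of these 2 rose (Slc2a3 and Gpd1; 0.873% of all genes called higher) and 2 fell (Hk3 and Pgm2; 0.84% called lower). The median log2 difference was 0.01 over the 32 members and 0.00 over all genes. With acetate against GF, 2 members were called in cortex, where 0.973% of all genes were: Slc2a3 fell (0.523% called lower) and Hk3 rose (0.45% called higher). The comparisons of GF with SPF and of acetate with GF share their GF libraries, so opposite signs in them are not independent of each other.

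Slc2a3 encodes GLUT3, a transporter with high affinity for glucose. Its level in cortex was 5, 8.94, 8.22 and 4.35 CPM in SPF libraries, 33.6, 44.1, 25 and 31.7 CPM in GF libraries, and 18, 10.4, 10.4 and 8.44 CPM in acetate libraries. All GF libraries lay above all libraries of both other states, and the acetate libraries overlapped SPF only at their lowest value. Slc2a3 rose 5.04-fold in GF (log2 2.33, SE 0.27, adjusted p = 0.00045) and fell with acetate by 1.51 on the log2 scale (SE 0.26, adjusted p = 0.012). The GF call held with each of the 8 libraries left out (largest adjusted p = 0.0027), whereas the acetate call held in 3 of 8 such fits. It was lost without GF library WT_528 or WT_529 or acetate library WT_523, WT_524 or WT_525 (log2 -1.78 to -1.35, largest adjusted p = 0.065). Acetate microglia had a log2 difference from SPF of 0.83 (SE 0.27, adjusted p = 0.40).

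In 5xFAD hippocampus, Slc2a3 was 12.9, 14.4, 8.33 and 7.42 CPM in SPF, 40.5, 43.1 and 56.8 CPM in GF, and 9.53, 23.3, 29.8 and 7.74 CPM in acetate libraries. Again every GF library was above all others, and the acetate libraries spread from the SPF range upward. The rise passed in 2 of 7 fits with a library left out, and was lost without FAD_2140, FAD_2152, FAD_2153, FAD_527 or FAD_531 (log2 1.98 to 2.29, largest adjusted p = 0.13). Slc2a3 rose 4.40-fold in 5xFAD GF (log2 2.14, SE 0.49, adjusted p = 0.022), and its acetate difference was -1.41 (SE 0.48, adjusted p = 0.39). The 5xFAD call was lost without library FAD_2152 (log2 2.03, adjusted p = 0.058) and without the libraries holding neutrophil markers (log2 1.99, adjusted p = 0.085). Wild-type hippocampus held 3.1, 13.7, 9.4 and 6.99 CPM in SPF, 44.8, 11.7 and 26.4 CPM in GF, and 7.6, 5.35, 3.48 and 9.82 CPM in acetate libraries. There GF library WT_530, one of the libraries with few genes detected, fell into the SPF range, and neither difference passed (GF against SPF log2 1.72, SE 0.49, adjusted p = 0.099; acetate against GF log2 -2.08, SE 0.49, adjusted p = 0.055). Without libraries FAD_2152, WT_530 and WT_518, a set chosen after seeing the data, both passed (log2 2.09, adjusted p = 0.049, and log2 -2.52, adjusted p = 0.032). With FAD_2152 kept and only WT_530 and WT_518 left out, the fall with acetate passed (log2 -2.52, SE 0.54, adjusted p = 0.031) and the rise in GF did not. WT_530 was the lowest GF library for Slc2a3, so leaving it out favours both differences. In whole brain Slc2a3 was 6.7 to 8.39 CPM in SPF and 10.3 to 18.7 CPM in GF (median 10.7 CPM), without overlap, and the difference did not pass (log2 0.75, SE 0.24, adjusted p = 0.13). The other 2 transporters, Slc2a1 (GLUT1) and Slc2a6, were called by edgeR in none of the 18 comparisons, while DESeq2 called Slc2a6 between genotypes in all 3 states.

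**Figure D2:**
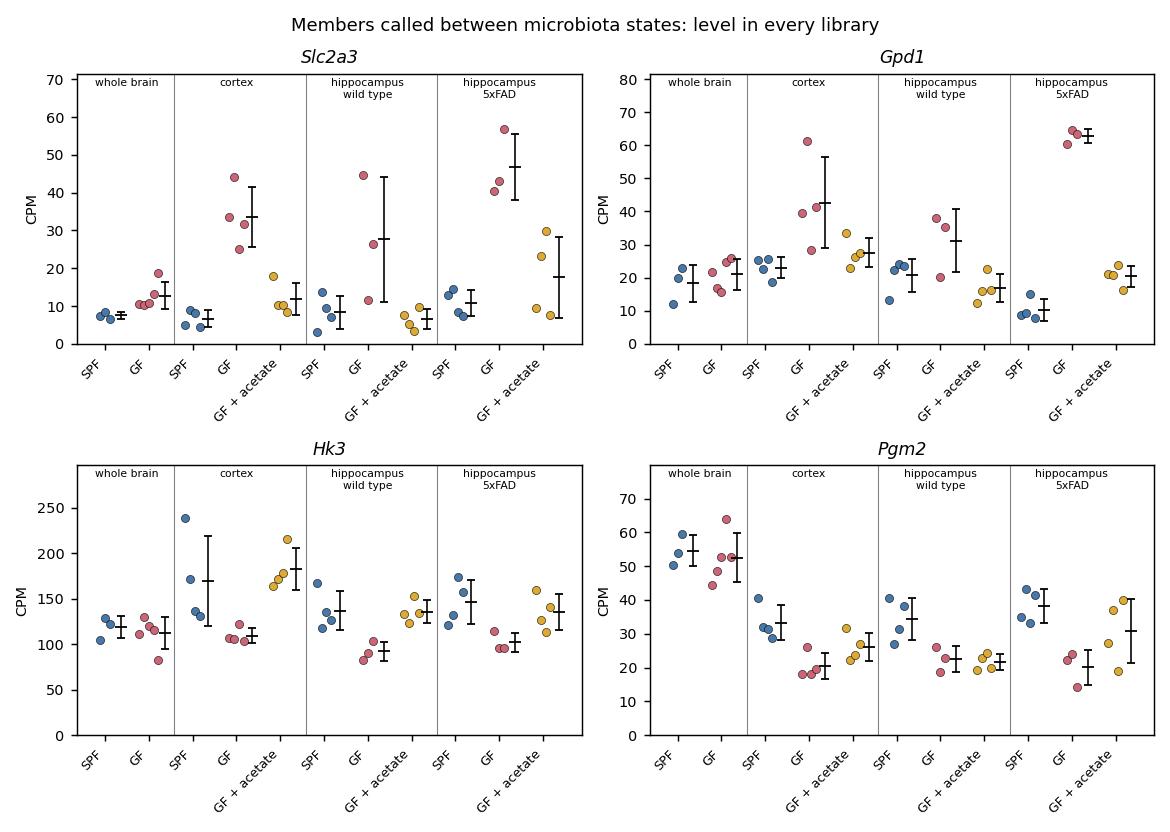
Level in CPM (vertical axis, from 0) of Slc2a3, Gpd1, Hk3 and Pgm2 in each of the 42 libraries, 1 point per library, by tissue, genotype and state (SPF blue, GF red, GF with acetate yellow), with mean and SD in black. Slc2a3 is higher in all 4 cortical GF libraries (25 to 44.1 CPM) than in any other cortical library, and Gpd1 lies between 60.5 and 64.7 CPM in the 5xFAD GF libraries, above every 5xFAD SPF and acetate library.

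Hk3, the low-capacity hexokinase of leukocytes, showed the reverse order. Cortical SPF libraries held 239, 171, 136 and 131 CPM, GF libraries 107, 106, 122 and 103 CPM, and acetate libraries 164, 171, 178 and 216 CPM. The GF libraries were below all others and the SPF and acetate libraries overlapped. Hk3 fell in GF by 0.63 on the log2 scale (SE 0.15, adjusted p = 0.045) and rose 1.67-fold with acetate (log2 0.74, SE 0.15, adjusted p = 0.028). Each call was kept in 2 of the 8 fits that left a library out. The fall was lost without SPF library 1 or 2 or any GF library (log2 -0.74 to -0.42, largest adjusted p = 0.13), and the acetate rise without WT_528, WT_529, WT_532, WT_523, WT_524 or WT_525 (log2 0.64 to 0.80, largest adjusted p = 0.12). In hippocampus Hk3 did not pass with edgeR, with log2 differences of GF from SPF of -0.57 in wild type (SE 0.15, adjusted p = 0.065) and -0.52 in 5xFAD (SE 0.15, adjusted p = 0.069). DESeq2 called Hk3 in both (adjusted p = 0.012 and 0.015) and in wild-type acetate against GF (log2 0.55, SE 0.15, adjusted p = 0.017), and edgeR called it in 5xFAD GF with the filter on a mean of at least 5 CPM (adjusted p = 0.043). Wild-type hippocampal libraries held 118 to 167 CPM in SPF, 82.7 to 103 CPM in GF and 123 to 153 CPM in acetate, without overlap of GF with the other states. The widely expressed hexokinases Hk1 and Hk2 were called by edgeR nowhere, and DESeq2 called Hk1 between regions in SPF (log2 -0.46, SE 0.14, adjusted p = 0.024). The whole-brain difference of Hk3 did not pass (log2 -0.08, SE 0.12, adjusted p = 0.82).

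Gpd1, the cytosolic enzyme that turns the glycolytic intermediate dihydroxyacetone phosphate into glycerol-3-phosphate for lipids, rose with germ-free status in cortex and in 5xFAD hippocampus. Cortical SPF libraries held 25.3, 22.5, 25.7 and 18.7 CPM, GF libraries 39.5, 61.4, 28.4 and 41.3 CPM, and acetate libraries 33.5, 22.9, 26.3 and 27.3 CPM. GF and SPF did not overlap, and GF overlapped acetate. The fall with acetate in cortex was not called by edgeR. DESeq2 called it (log2 -0.63, SE 0.20, adjusted p = 0.045), 1 of 3 members where it called 3.09% of all genes. The cortical rise was 1.85-fold (log2 0.89, SE 0.20, adjusted p = 0.025). It was kept in 3 of 8 fits that left a library out, and lost without SPF library 2 or 4 or GF library WT_528, WT_529 or WT_532 (log2 0.66 to 1.04, largest adjusted p = 0.10). In 5xFAD hippocampus the SPF libraries held 8.75, 9.22, 15.2 and 7.76 CPM, the GF libraries 60.5, 64.7 and 63.4 CPM, and the acetate libraries 21, 20.9, 23.8 and 16.2 CPM. The 3 states did not overlap at all there. Gpd1 rose 6.13-fold in 5xFAD GF (log2 2.62, SE 0.27, adjusted p = 9.1e-06), in each of 7 fits with a library left out. It fell with acetate by 1.62 on the log2 scale (SE 0.26, adjusted p = 0.0089), a call lost without FAD_527, FAD_531, FAD_519 or FAD_522 (log2 -1.70 to -1.52, largest adjusted p = 0.075). Among all genes in 5xFAD hippocampus, 1.82% were called between GF and SPF (0.908% higher in GF) and 0.082% between acetate and GF (0.0176% higher and 0.0645% lower under acetate). Gpd1 was the only member called between acetate and GF there, and 1 of 3 between GF and SPF.

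In whole brain Gpd1 was not called, with 12.1 to 22.8 CPM in SPF and 15.6 to 25.9 CPM in GF libraries, which overlapped. Wild-type hippocampus held 13.3, 22.2, 24 and 23.5 CPM of Gpd1 in SPF, 37.9, 20.3 and 35.3 CPM in GF, and 12.3, 16.1, 22.6 and 16.3 CPM in acetate. GF library WT_530 again lay within the SPF range, and the differences did not pass (log2 0.59, SE 0.26, adjusted p = 0.35, and log2 -0.89, SE 0.26, adjusted p = 0.12). Without libraries FAD_2152, WT_530 and WT_518, a set chosen after seeing the data, the fall with acetate was called (log2 -1.0, SE 0.23, adjusted p = 0.045). DESeq2 called the fall on all libraries (log2 -0.89, SE 0.27, adjusted p = 0.039). Whether the GF effect on Gpd1 differs between genotypes was tested as an interaction, which gave log2 2.02 (SE 0.37, adjusted p = 0.25). Without library FAD_2152 the interaction was 2.29 (SE 0.36, adjusted p = 0.031), and DESeq2 on all libraries gave 2.02 (SE 0.38, adjusted p = 0.0008). Between genotypes Gpd1 had a log2 difference of -1.01 in SPF (SE 0.25, adjusted p = 0.062) and of 1.01 in GF (SE 0.28, adjusted p = 0.089). Without FAD_2152, the fall in SPF 5xFAD was called at -1.28 (SE 0.25, adjusted p = 0.0066). Both calls made without FAD_2152 leave out a library singled out for levels near wild type, so they are no independent support. With every library kept, DESeq2 called the fall in SPF (log2 -1, SE 0.25, adjusted p = 0.0083) and the rise in GF (log2 1.02, SE 0.28, adjusted p = 0.018). edgeR without a filter called the fall in SPF (log2 -1.01, SE 0.24, adjusted p = 0.044) and the interaction (log2 2.03, SE 0.36, adjusted p = 0.025). Gpd2, the mitochondrial partner of Gpd1, was not called by edgeR between flora states on all libraries. In wild-type hippocampus, DESeq2 called its fall with acetate (log2 -1.37, SE 0.41, adjusted p = 0.041), where edgeR gave log2 -1.36 (SE 0.40, adjusted p = 0.13). edgeR called the fall without WT_524 (log2 -2.04, adjusted p = 0.013). That library held the highest Gpd2 of the acetate group, so leaving it out favours a larger fall.

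Pgm2, a phosphoglucomutase, was called lower in GF in cortex and in 5xFAD hippocampus. Its difference did not pass in wild-type hippocampus (log2 -0.60, SE 0.23, adjusted p = 0.27). In whole brain it was not called, with 50.3, 53.9 and 59.5 CPM in SPF and 44.3, 48.6, 52.8, 64 and 52.8 CPM in GF libraries. Cortical libraries held 40.7, 32.1, 31.3 and 28.8 CPM in SPF, 18.1, 26.2, 18 and 19.7 CPM in GF, and 31.7, 22.3, 23.6 and 27.1 CPM in acetate. In 5xFAD hippocampus they held 34.9, 43.3, 33.1 and 41.5 CPM in SPF, 22.2, 24 and 14.3 CPM in GF, and 27.2, 37, 19.1 and 40.1 CPM in acetate. GF and SPF did not overlap in either tissue, and acetate overlapped both. Pgm2 fell in cortical GF by 0.70 (SE 0.17, adjusted p = 0.041) and in 5xFAD GF by 0.92 (SE 0.23, adjusted p = 0.042, where 0.914% of all genes were called lower). The cortical call was lost without SPF library 1, 2 or 3 or GF library WT_528, WT_530 or WT_532 (log2 -0.84 to -0.58, largest adjusted p = 0.14). The 5xFAD call was lost without any of the 7 libraries but FAD_2152 (log2 -1.06 to -0.72, largest adjusted p = 0.32). The symbols Pgm1 and Pgm2 have each been used for the other gene, so which enzyme a row named by symbol alone holds is uncertain. Pgm1 was called nowhere by edgeR on all libraries, was called between genotypes in acetate without WT_523 (log2 0.86, SE 0.22, adjusted p = 0.039), and by DESeq2 between regions in acetate (log2 -0.66, SE 0.23, adjusted p = 0.042).

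In whole brain, 2 members rose in GF (1.02% of all genes called higher) and none fell (0.971% called lower). Ldhb was 432, 436 and 434 CPM in SPF and 505, 556, 515, 489 and 498 CPM in GF, a 1.18-fold rise (log2 0.24, SE 0.05, adjusted p = 0.036). G6pdx, the X-linked glucose-6-phosphate dehydrogenase that commits glucose to the pentose phosphate pathway, was 72.9, 82.6 and 94.8 CPM in SPF and 107, 105, 103, 113 and 119 CPM in GF, a 1.31-fold rise (log2 0.39, SE 0.09, adjusted p = 0.048). The groups did not overlap for either gene. Each call was lost in 6 of the 8 fits that left a library out. Ldhb was lost without any SPF library or GF library 1, 2 or 4 (log2 0.21 to 0.26, largest adjusted p = 0.13), and G6pdx without SPF library 1 or 3 or GF library 1, 2, 4 or 5 (log2 0.30 to 0.49, largest adjusted p = 0.19). Neither was called in cortex (Ldhb log2 0.01, adjusted p = 0.98; G6pdx log2 0.11, adjusted p = 0.75). The other pentose phosphate members Pgd, Tkt and Taldo1 were called by edgeR in none of the 18 comparisons. DESeq2 called Taldo1 here as well (log2 0.19, SE 0.06, adjusted p = 0.019), 1 of 3 members where it called 5.63% of all genes.

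**Figure D3:**
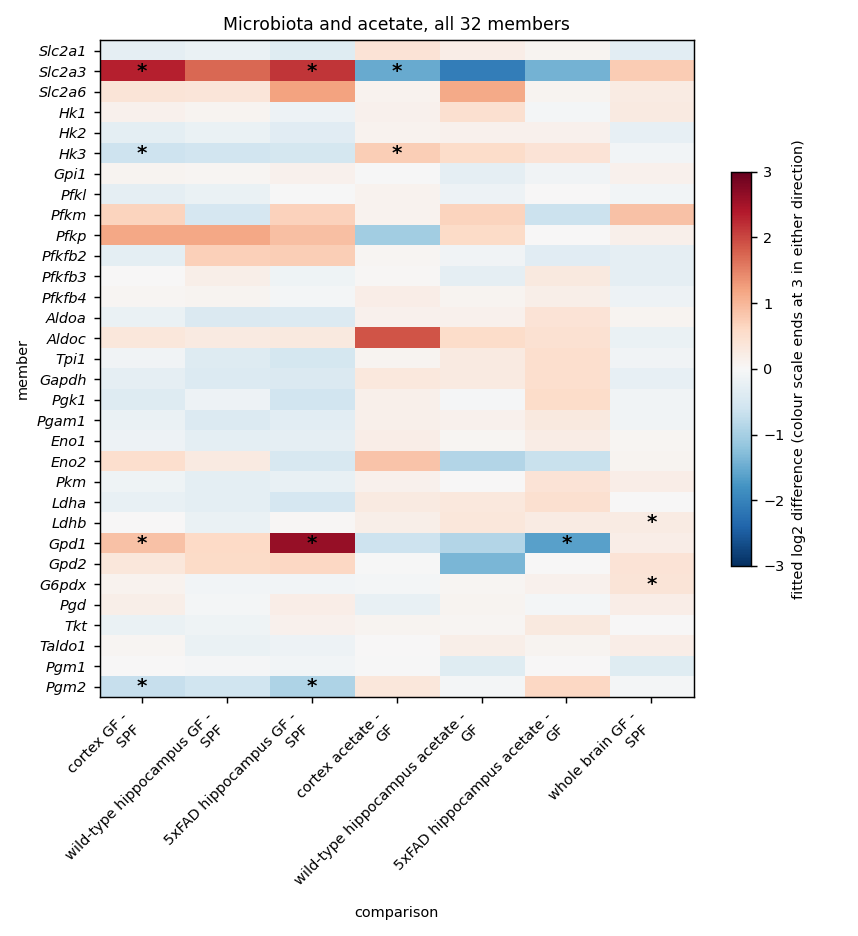
Fitted log2 differences (colour, red higher and blue lower in the first-named state) of the 32 members in 7 comparisons of flora and acetate, with a star where adjusted p was under 0.05. Slc2a3 has the darkest red in cortex (2.33) and Gpd1 in 5xFAD hippocampus (2.62); most glycolytic members are pale, and the dark cells of Aldoc, Pfkp and Eno2 belong to genes under 3 CPM.

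In the remaining flora comparisons edgeR called 0 members. These were wild-type hippocampus GF against SPF (0.727% of all genes called), its acetate against GF (0.492%) and its acetate against SPF (0.123%, made up of 0.0996% higher and 0.0234% lower), cortex acetate against SPF (0.364%) and 5xFAD acetate against SPF (0.0527%, of which 0.0469% higher). At an unadjusted p under 0.05 there were 10, 7, 5, 4 and 4 members in that order, where 12.6%, 11.7%, 8.03%, 7.03% and 6.72% of all genes passed. DESeq2 called 2, 5, 0, 0 and 1 members, where it called 2.57%, 2.14%, 0.504%, 0.9% and 0.481% of all genes. In cortex and 5xFAD acetate against SPF all 4 members at an unadjusted p under 0.05 were higher with acetate. The member called by DESeq2 in 5xFAD acetate against SPF was Gpd1 (log2 0.99, SE 0.25, adjusted p = 0.024), which stood at 10.2 CPM ± 3.36 (SD, n = 4) in SPF and 20.5 CPM ± 3.17 (SD, n = 4) in acetate.

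Values of other cell types moved with the flora comparisons. The summed level of the 6 border macrophage markers was 20.7 to 35.1 CPM in cortical SPF, 8.7 to 11.3 CPM in GF and 6.77 to 13.2 CPM in acetate libraries, mostly from Mrc1, while Lyve1 was at 0 in all cortical SPF and GF libraries. The 10 microglial markers summed to 52900 to 66200 CPM in cortical SPF, 45000 to 51200 CPM in GF and 55800 to 60700 CPM in acetate libraries, and 2 of them, Olfml3 and Fcrls, fell in GF. Whether these shifts have a part in the results for Slc2a3, Hk3, Gpd1 and Pgm2 was not tested. Neutrophil markers, which belong to a cell rich in Slc2a3 and Hk3, summed to at most 1.18 CPM in cortical SPF and 0.769 CPM in cortical GF libraries. In cortical acetate libraries they summed to 0.163 to 16.8 CPM, with the 16.8 CPM in WT_524. The acetate calls of Slc2a3 and Hk3 were both lost without that library, as they were without WT_528, WT_529, WT_523 or WT_525. WT_524 held 10.4 CPM of Slc2a3 and 178 CPM of Hk3, both inside the range of the other cortical acetate libraries. A part of neutrophils in these calls was not tested. In 5xFAD hippocampus the border macrophage sum was 12.9 to 28.9 CPM in SPF and 3.72 to 7.93 CPM in GF, and the microglial sum was 42600 to 57900 CPM and 42100 to 43400 CPM.

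Whether the 5xFAD genotype moves these genes was asked in hippocampus within each state. Under acetate, 9 of the 32 members rose in 5xFAD (1.83% of all genes called higher) and 0 fell (0.674% called lower, 2.51% in either direction). They were 5 members of upper glycolysis (Gpi1, Pfkl, Pfkfb3, Aldoa and Tpi1), 3 of lower glycolysis (Gapdh, Eno1 and Pkm) and the mitochondrial glycerol-3-phosphate dehydrogenase Gpd2. The counts of Gapdh and Eno1 are uncertain here too, because of their near-identical copies. edgeR called no transporter, hexokinase, lactate dehydrogenase, pentose phosphate or phosphoglucomutase member. DESeq2 called 14 members, all higher (4.52% of all genes called): these 9 and Slc2a3, Slc2a6, Pgam1, Ldha and Tkt. The median log2 difference was 0.50 over the 32 members and 0.00 over all genes.

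Pkm, the pyruvate kinase that makes pyruvate and ATP in the last step, was 168, 177, 146 and 150 CPM in wild-type and 339, 322, 287 and 342 CPM in 5xFAD acetate libraries, a 2.01-fold rise (log2 1.01, SE 0.15, adjusted p = 0.00035). Gapdh was 170, 208, 171 and 203 CPM against 291, 337, 259 and 310 CPM (1.59-fold, log2 0.67, SE 0.13, adjusted p = 0.0043). Pfkfb3, which makes the fructose-2,6-bisphosphate that switches on phosphofructokinase, was 84.2, 76, 92.9 and 85 CPM against 130, 110, 122 and 155 CPM (1.53-fold, log2 0.61, SE 0.12, adjusted p = 0.005). For these 3 genes every 5xFAD library lay above every wild-type library. Gpi1, the glucose-6-phosphate isomerase, was 117, 89.2, 104 and 82.1 CPM against 129, 159, 151 and 139 CPM, also without overlap (1.47-fold, log2 0.56, SE 0.12, adjusted p = 0.0095). Pkm, Gapdh, Pfkfb3 and Gpi1 were called in all 8 fits that left a library out, with largest adjusted p of 0.0024, 0.022, 0.029 and 0.045.

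Aldoa was 274, 313, 244 and 269 CPM in wild-type and 466, 455, 346 and 456 CPM in 5xFAD acetate libraries (1.57-fold, log2 0.65, SE 0.14, adjusted p = 0.014). Tpi1, the triosephosphate isomerase, was 96.6, 98.3, 63.7 and 85 CPM against 139, 153, 111 and 153 CPM (1.62-fold, log2 0.69, SE 0.16, adjusted p = 0.019). Pfkl, the liver-type phosphofructokinase that commits sugar to glycolysis, was 125, 125, 110 and 119 CPM against 192, 187, 154 and 179 CPM (1.49-fold, log2 0.57, SE 0.13, adjusted p = 0.015). None of these groups overlapped. Aldoa was lost without WT_524 (adjusted p = 0.058), Tpi1 without WT_524, FAD_520 or FAD_522 (largest adjusted p = 0.075) and Pfkl without WT_524, FAD_519 or FAD_520 (largest adjusted p = 0.058). Eno1 was 170, 173, 160 and 161 CPM against 228, 261, 220 and 238 CPM (1.43-fold, log2 0.51, SE 0.13, adjusted p = 0.037). Its groups did not overlap either, yet the call was lost in 7 of 8 fits, all but that without FAD_521 (largest adjusted p = 0.13). Gpd2 was 3.68, 4.57, 13.5 and 3.57 CPM against 10.4, 23.7, 13.5 and 22.7 CPM (2.77-fold, log2 1.47, SE 0.38, adjusted p = 0.035). Wild-type library WT_524 reached the 5xFAD range for Gpd2, and the call was lost without WT_518, WT_523, WT_525, FAD_520 or FAD_522 (log2 1.27 to 2.16, largest adjusted p = 0.13).

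**Figure D4:**
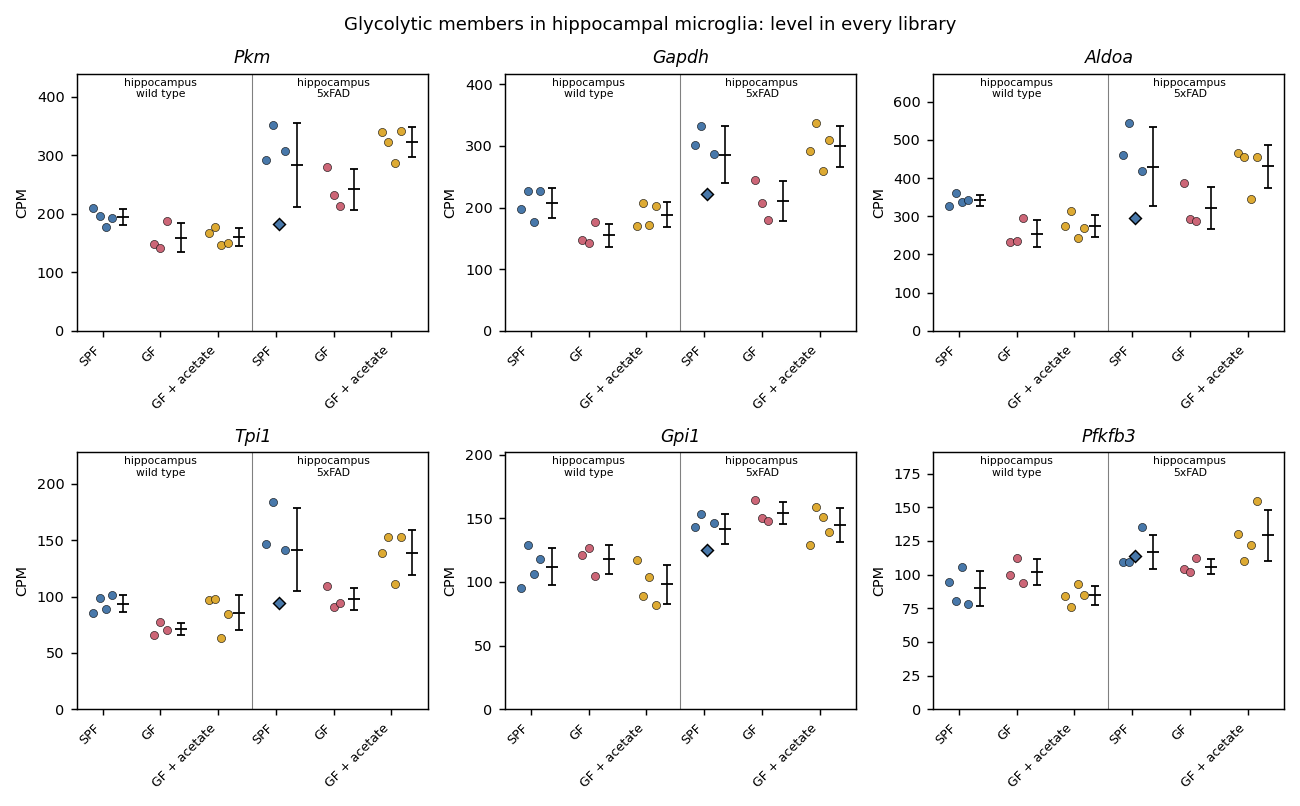
Level in CPM (vertical axis, from 0) of 6 glycolytic members in each of the 22 hippocampal libraries, 1 point per library, wild type left and 5xFAD right of the line (SPF blue, GF red, GF with acetate yellow), with mean and SD in black and library FAD_2152 as a diamond. The 5xFAD acetate libraries lie above the wild-type acetate libraries in every panel, and library FAD_2152 is the lowest of its group for Pkm (182 CPM), Gapdh (222 CPM), Aldoa (296 CPM), Tpi1 (94.1 CPM) and Gpi1 (125 CPM).

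In SPF mice edgeR called 0 members between genotypes (0.568% of all genes called). At an unadjusted p under 0.05 there were 11 members, 10 of them higher in 5xFAD (10.2% of all genes), and DESeq2 called 6 (1.82% of all genes). The median log2 difference of the members was 0.29, against 0.01 over all genes. Pkm was 210, 197, 177 and 193 CPM in wild-type SPF and 291, 351, 182 and 307 CPM in 5xFAD SPF libraries, where the 182 CPM belonged to library FAD_2152 (log2 0.54, SE 0.15, adjusted p = 0.099). The other 3 libraries lay above all wild-type libraries. Without FAD_2152, 6 members were called (1.92% of all genes called): Pkm (log2 0.70, SE 0.12, adjusted p = 0.0015), Tpi1 (0.75, SE 0.15, 0.0059), Gapdh (0.57, SE 0.12, 0.014), Eno1 (0.51, SE 0.11, 0.014) and Ldha (0.63, SE 0.15, 0.026) rose and Gpd1 fell. This 1 library moved the count from 0 to 6. It was singled out for levels of Cst7 and Apoe near wild type. Leaving it out for that reason favours a larger genotype difference, so the 6 calls are no independent support. The same holds for other calls gained without it.

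In GF mice edgeR also called 0 members between genotypes (0.756% of all genes called), with 10 at an unadjusted p under 0.05, all higher in 5xFAD (10.6% of all genes), and 3 called by DESeq2 (2.51%). The median log2 difference was 0.33, against 0.00 over all genes. Pkm was 148, 141 and 187 CPM in wild-type and 280, 232 and 213 CPM in 5xFAD GF libraries, without overlap (log2 0.61, SE 0.17, adjusted p = 0.093). Slc2a6 was 1.34, 0.0579 and 4.71 CPM against 16, 16.6 and 10.2 CPM (log2 2.80, SE 0.70, adjusted p = 0.064), also without overlap. It passed in GF without the libraries holding neutrophil markers (log2 4.31, SE 0.77, adjusted p = 0.012). That fit left out WT_532, the wild-type GF library with the highest Slc2a6 (4.71 CPM), which favours a larger difference. The wild-type GF libraries it kept held 26 counts and 1 count, so the call is no independent support. Under acetate, Slc2a6 was 4.88, 5.35, 2.97 and 4.84 CPM in wild-type against 15.6, 12.3, 10.2 and 22 CPM in 5xFAD libraries (log2 1.74, SE 0.58, adjusted p = 0.13).

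That 9 members passed under acetate and 0 passed in SPF or GF mice does not show that the genotype acts differently there. The difference itself was tested for acetate against GF and for GF against SPF. It was not tested for acetate against SPF. The interaction of genotype with acetate against GF was called for 0 members (0% of all genes called), with 4 at an unadjusted p under 0.05 (5.3% of all genes) and 0 called by DESeq2 (0.041%). For Pkm it was 0.40 (SE 0.22, adjusted p = 0.95), for Gapdh 0.22 (SE 0.20, adjusted p = 0.99) and for Pfkfb3 0.55 (SE 0.18, adjusted p = 0.89). The interaction with GF against SPF was likewise called for 0 members (0% of all genes called), with 2 at an unadjusted p under 0.05 (5.52% of all genes) and 1, Gpd1, called by DESeq2 (0.0879%). Within 5xFAD mice, GF against SPF without library FAD_2152 called 5 members in place of 3 (1.88% of all genes called). Aldoa (log2 -0.56, adjusted p = 0.036), Tpi1 (-0.68, 0.025) and Gapdh (-0.54, 0.038) fell there, beside Pgm2, and Gpd1 rose.

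**Figure D5:**
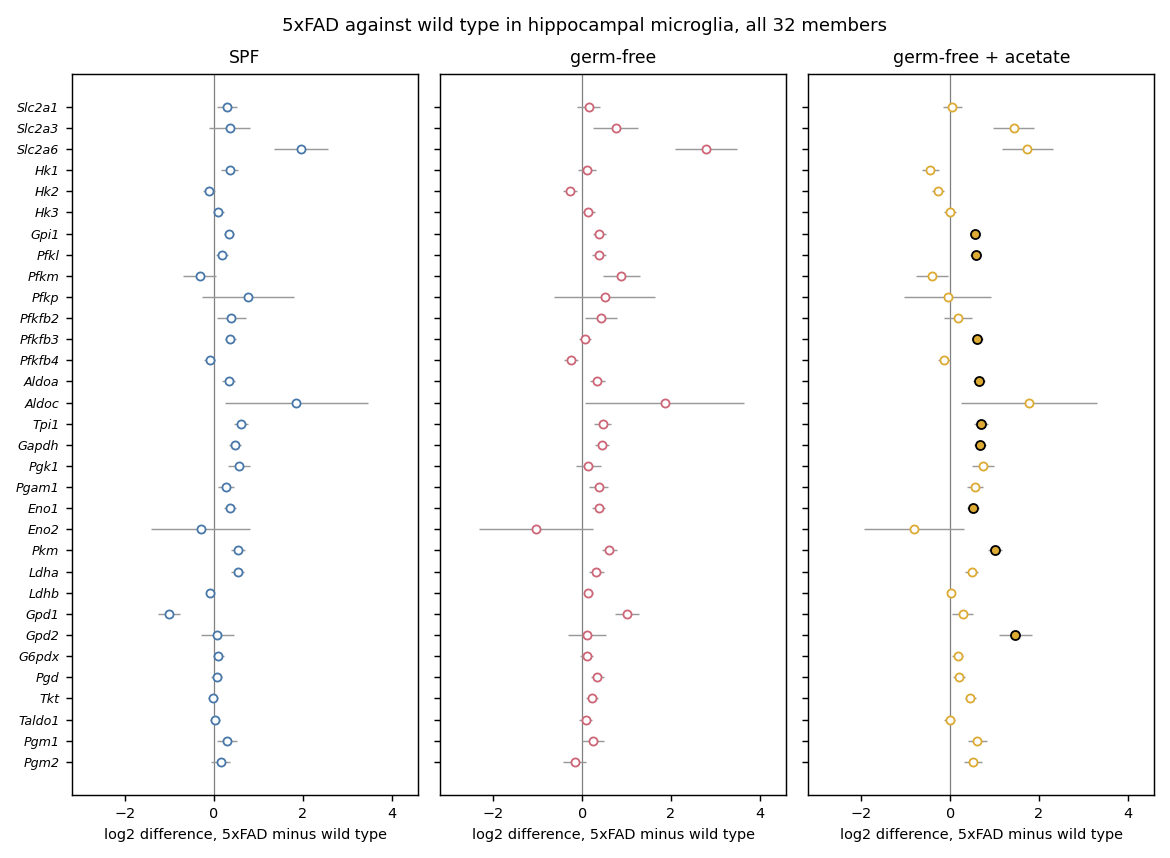
Fitted log2 difference of 5xFAD from wild type (horizontal axis) for each of the 32 members in hippocampal microglia of SPF, GF and acetate-treated GF mice, with the standard error as a line and filled symbols where adjusted p was under 0.05. The 9 filled symbols are all under acetate, between 0.51 (Eno1) and 1.47 (Gpd2), while the same members lie to the right of 0 in the other states without passing.

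Marker genes differed between the same groups. The 10 microglial markers summed to 57100 to 59400 CPM in wild-type and 49100 to 50700 CPM in 5xFAD acetate libraries, and 3 of them fell in 5xFAD (P2ry12, Gpr34 and Cx3cr1). The 6 border macrophage markers summed to 1.28 to 10.2 CPM in wild-type and 10.9 to 26.4 CPM in 5xFAD acetate libraries. Of these, Pf4 rose, from 0 to 0.223 CPM to 2.02 to 4.96 CPM, and Lyve1 was at 0 in all wild-type acetate libraries. The 6 endothelial markers summed to 14 to 38.2 CPM in wild-type and 15.7 to 31.7 CPM in 5xFAD acetate libraries, with 1 of them, Flt1, called higher. Neutrophil markers summed to at most 1.45 and 2.12 CPM in these 2 groups. The part of these other cells in the rise of the 9 members was not tested. In bulk samples, more cells of a type and more RNA per cell cannot be told apart. Without the libraries holding neutrophil markers, 8 of the 9 were called again (Eno1 was lost and Tkt gained). Without libraries FAD_2152, WT_530 and WT_518 it was also 8 (Gpd2 was lost and Slc2a6 gained).

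Genes around the pathway were read from 5 further lists. Of 18 regulators of glycolysis, 17 were tested in hippocampus, and under acetate 2 rose and 1 fell in 5xFAD. For these lists as for the members, the share of all genes called in that comparison was 1.83% higher and 0.674% lower. Hif1a, the oxygen-regulated subunit of hypoxia-inducible factor 1, was 95.3, 101, 102 and 98.9 CPM in wild-type and 161, 191, 247 and 310 CPM in 5xFAD acetate libraries (2.29-fold, log2 1.19, SE 0.20, adjusted p = 0.0012). Egln3, a prolyl hydroxylase that marks this factor for destruction, was 0.725 to 2.31 CPM in wild-type and 14.6 to 18.5 CPM in 5xFAD libraries (log2 3.80, SE 0.77, adjusted p = 0.0074). Txnip, an inhibitor of glucose uptake, fell by 0.44 (SE 0.11, adjusted p = 0.03), from 653 CPM ± 68 (SD, n = 4) to 480 CPM ± 48.6 (SD, n = 4). Of 15 hypoxia-inducible genes outside glycolysis, 13 were tested and 1 rose, the transcription factor Bhlhe40 (log2 4.53, SE 0.92, adjusted p = 0.0074), which also rose in SPF 5xFAD mice (log2 4.30, SE 0.95, adjusted p = 0.035). Of 12 genes of pyruvate and lactate fate, 11 were tested and 1 rose, the lactate exporter Slc16a3 (1.82-fold, log2 0.87, SE 0.23, adjusted p = 0.046), with 15.9, 28.6, 30.6 and 40.9 CPM against 65, 47.9, 43.3 and 54.7 CPM. Of 15 glycogen genes, 1 fell, the phosphorylase kinase subunit Phka2 (log2 -0.49, SE 0.12, adjusted p = 0.028).

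Of 35 other glucose, glycolysis and pentose phosphate genes, 24 were tested in hippocampus and 23 in cortex. Slc2a5, the fructose transporter and a known microglial gene, fell in 5xFAD under acetate (log2 -0.51, SE 0.12, adjusted p = 0.021). It rose with acetate against GF in cortex (1.54-fold, log2 0.63, SE 0.11, adjusted p = 0.009) and in wild-type hippocampus (1.52-fold, log2 0.60, SE 0.13, adjusted p = 0.038). In cortex it was 735, 661, 827 and 699 CPM in GF and 1120, 1040, 1170 and 1190 CPM in acetate libraries, without overlap. Galm, the mutarotase of galactose, fell in cortical GF (log2 -0.62, SE 0.15, adjusted p = 0.04). Slc2a10 was called higher in cortical GF (adjusted p = 0.0012) at a level near the limit of counting, with 0.879 to 2.92 CPM in GF and 3 of 4 SPF libraries at 0. Mlxip, a glucose-sensing transcription factor, rose in GF in cortex (1.57-fold, log2 0.65, SE 0.15, adjusted p = 0.028), wild-type hippocampus (1.64-fold, log2 0.72, SE 0.17, adjusted p = 0.045) and 5xFAD hippocampus (1.63-fold, log2 0.71, SE 0.17, adjusted p = 0.03). With acetate Mlxip fell by 0.83 in cortex (SE 0.15, adjusted p = 0.012) and by 0.75 in wild-type hippocampus (SE 0.17, adjusted p = 0.045).

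Among the hypoxia-inducible genes, P4ha1, a collagen prolyl hydroxylase, fell in GF by 0.90 in cortex (SE 0.12, adjusted p = 0.001) and by 1.15 in 5xFAD hippocampus (SE 0.18, adjusted p = 0.0011). It rose 1.56-fold with acetate in cortex (log2 0.64, SE 0.12, adjusted p = 0.017). Ddit4, an mTORC1 inhibitor induced by stress, rose in 5xFAD GF (log2 4.39, SE 1.07, adjusted p = 0.04), from 2.25 CPM ± 1.33 (SD, n = 4) to 44.4 CPM ± 12.5 (SD, n = 3). In whole brain, Ddit4 rose from 2.8 CPM ± 0.7 (SD, n = 3) to 47.1 CPM ± 12 (SD, n = 5) and Txnip fell by 0.30 (SE 0.07, adjusted p = 0.032). Vhl, which targets hypoxia-inducible factor for destruction, rose 1.65-fold with acetate in wild-type hippocampus (log2 0.72, SE 0.15, adjusted p = 0.032).

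The promoters of members were read from RefSeq (build GRCm38.p6) because 9 members rose in 5xFAD acetate microglia, 8 of them glycolytic, and Hif1a rose in the same libraries. Of the 32 members 30 had an entry, and Slc2a3 and Gpd1 had none. The core of the hypoxia response element, ACGTG, was searched on both strands in the 250 bases before the first listed start of each gene. Other starts of a gene were not searched. Capitals mark it below, where CACGT is the same core on the other strand, and the sequences of Pfkfb3, Pkm and Gapdh are shown for members that rose, with Pgk1, a textbook target of the factor, and Hk3 for comparison.
Pfkfb3: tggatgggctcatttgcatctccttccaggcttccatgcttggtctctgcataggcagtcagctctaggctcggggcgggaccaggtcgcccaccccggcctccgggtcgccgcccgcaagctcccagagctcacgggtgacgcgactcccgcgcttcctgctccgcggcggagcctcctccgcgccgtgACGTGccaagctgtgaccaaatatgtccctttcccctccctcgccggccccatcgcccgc
Pkm: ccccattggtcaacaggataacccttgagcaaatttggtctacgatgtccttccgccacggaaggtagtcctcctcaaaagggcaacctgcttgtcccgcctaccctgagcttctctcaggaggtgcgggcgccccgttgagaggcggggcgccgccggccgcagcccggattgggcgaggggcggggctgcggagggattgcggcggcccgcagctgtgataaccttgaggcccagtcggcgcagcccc
Gapdh: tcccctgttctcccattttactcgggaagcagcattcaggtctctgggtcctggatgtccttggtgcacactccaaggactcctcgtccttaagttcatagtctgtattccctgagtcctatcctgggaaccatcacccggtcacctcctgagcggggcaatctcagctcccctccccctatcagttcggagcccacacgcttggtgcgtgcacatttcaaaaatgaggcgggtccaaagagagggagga
Pgk1: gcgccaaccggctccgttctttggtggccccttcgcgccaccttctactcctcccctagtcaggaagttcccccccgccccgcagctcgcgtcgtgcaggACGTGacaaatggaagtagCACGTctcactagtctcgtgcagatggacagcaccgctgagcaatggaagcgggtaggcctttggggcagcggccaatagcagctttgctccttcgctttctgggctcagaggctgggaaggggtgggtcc
Hk3: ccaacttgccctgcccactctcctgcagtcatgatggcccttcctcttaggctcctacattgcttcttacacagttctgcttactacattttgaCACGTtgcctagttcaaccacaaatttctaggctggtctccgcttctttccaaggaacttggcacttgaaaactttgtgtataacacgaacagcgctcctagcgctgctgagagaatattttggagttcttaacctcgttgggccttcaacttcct

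These windows lie at chr2:11553930-11554179, minus strand (Pfkfb3), chr9:59656326-59656575, plus strand (Pkm), chr6:125165774-125166023, minus strand (Gapdh), chrX:106186850-106187099, plus strand (Pgk1) and chr13:55021386-55021635, minus strand (Hk3), each ending at the base before the annotated start. Of the 9 members that rose in 5xFAD acetate microglia, only Pfkfb3 held the core in this window of its first listed start, at position -60. Over all members 11 of 30 promoters held it (36.7%), against 4477 of 27025 promoters of the same length (16.6%). Pgk1 held it at 2 places and was 13.9 CPM ± 3.17 (SD, n = 4) in wild-type and 23.1 CPM ± 5.46 (SD, n = 4) in 5xFAD acetate libraries (log2 0.73, SE 0.25, adjusted p = 0.13). The E-box CACGTG, which holds the core on both strands, was in 3 of 30 member promoters (10%) and in 6.05% of all promoters. A match is a stretch of letters and not a measured binding site, and windows without it say nothing of the factor.

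The 17 members that edgeR called nowhere on all libraries, 9 of which DESeq2 called in some comparison, had their smallest adjusted p at 0.051 for Tkt (5xFAD against wild type under acetate, log2 0.45, SE 0.12), 0.064 for Slc2a6 and 0.1 for Ldha. Tkt, the transketolase of the pentose phosphate pathway, was 101, 101, 89.9 and 109 CPM in wild-type and 135, 136, 138 and 137 CPM in 5xFAD acetate libraries, without overlap. Pgk1, Pgam1 and Ldha had log2 differences of 0.73, 0.55 and 0.48 in that comparison and did not pass. Slc2a1, Hk1, Hk2, Pfkfb4, Pgd, Taldo1 and Pgm1 varied in group means only from 54 to 114, 36.4 to 58.9, 138 to 197, 51.5 to 110, 114 to 166, 172 to 225 and 21.9 to 44.7 CPM across the 11 groups. Pfkm, Pfkfb2, Pfkp, Aldoc and Eno2 had group means of at most 13.9, 13.4, 2.91, 2.41 and 2.76 CPM, so for the last 3 a change of moderate size was not detectable at this depth.

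Hippocampal and cortical wild-type microglia with the same number and state in their titles were read as the same animal. They were compared with this animal as a block. edgeR called 0 members in SPF (0.718% of all genes called), 0 in GF (0.0359%) and 0 under acetate (2.38%). At an unadjusted p under 0.05 there were 5, 5 and 10 members, where 13.9%, 11.9% and 17.9% of all genes passed. DESeq2 called 2, 1 and 7 members, where it called 5.36%, 3.05% and 8.42% of all genes. The median log2 difference of hippocampus from cortex was -0.06, -0.18 and -0.22 over the members and -0.01, -0.04 and -0.06 over all genes. Under acetate 29 of 32 members had a value below 0. Hk3 came nearest to the threshold there, with 164, 171, 178 and 216 CPM in cortex and 133, 123, 153 and 134 CPM in hippocampus of the same 4 animals (log2 -0.45, SE 0.12, adjusted p = 0.052). It was lower in hippocampus in each of the 4 animals.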

How the data were processed

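RNA of sorted microglia was sequenced on an Illumina HiSeq, per the labels' protocols. Raw read counts per gene were deposited by the authors and were used unchanged. STAR 2.5.2b, featureCounts 1.5.1 and build GRCh38 are named in the submitters' processing notes; this is a human build while the symbols are those of mouse, so coordinates come only from the RefSeq promoter table (GRCm38.p6) and exon lengths from GENCODE M21. The 32 members and all other lists were chosen with earlier results of these data known.

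There were 4 separate fits, 1 for each tissue and 1 between regions, and each used every group it concerns. edgeR 4.0.16 (with limma 3.58.1, under R 4.3.3) gave the two-sided robust quasi-likelihood test after TMM scaling and filterByExpr with a minimum count of 10. Benjamini-Hochberg adjustment ran over the 11332, 15113, 17063 or 16706 genes a fit tested, with a threshold of 0.05. A fold is the antilog of the log2 difference, whose SE was obtained by dividing it by the square root of F. CPM used TMM-scaled library sizes. Members called in a comparison are given with every library, members called nowhere by ranges, and up to 4 called genes with the smallest p per other list. Alternatives were DESeq2 1.42.0, RLE size factors, no filter, a mean of at least 5 CPM, only the groups compared, libraries left out, and the replicate block added or dropped. Fits were tested on simulated data.

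All 61 library pairs inside a group differed by more than sampling noise, with a chi-square over its degrees of freedom of 10.09 to 60.25 (1 from sampling alone). Nothing beyond the titles' numbers says that replicates are separate animals; p-values measure the spread between these samples. The same title number joins cortex and hippocampus in 11 cases, read as 11 animals, whose residuals correlated across genes with r of 0.004 to 0.361, over 0.1 in 8. No column lacked a sample.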

Additional observations from a re-analysis of the deposited data

Results flagged for a closer look

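A library was flagged where it stood far from the other 3 or 4 of its group, by Dixon's test at the 95% level. Over the 15 members called in some comparison, 120 groups of 4 or 5 libraries were tested and 5 gave such a library, where chance flags about 1 in 20. Pfkfb3 was 127 CPM in cortical GF library WT_532, against 102 to 106 CPM in the others. Aldoa was 346 CPM in 5xFAD acetate library FAD_521, against 455 to 466 CPM. Gpd1 was 13.3 CPM in wild-type hippocampal SPF library 1, against 22.2 to 24 CPM. Gpd2 was 13.5 CPM in wild-type hippocampal acetate library WT_524, against 3.57 to 4.57 CPM. Without that library the fall of Gpd2 with acetate in wild-type hippocampus was called (log2 -2.04, SE 0.35, adjusted p = 0.013). Leaving out a library for its own high Gpd2 favours a larger fall, so this call is no independent support. G6pdx was 121 CPM in 5xFAD SPF library FAD_2140, against 88.8 to 93 CPM.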

How the results depend on the processing

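None of the 21 calls reversed its direction under the alternatives run; members not called were not compared in this way. DESeq2 called more members in hippocampus: 2 in wild-type GF against SPF, 5 in wild-type acetate against GF, 1 in 5xFAD acetate against SPF, 6, 3 and 14 between genotypes in SPF, GF and acetate, 1 in the interaction with GF against SPF, and 2, 1 and 7 between regions in SPF, GF and acetate; edgeR called 0 in each but 9 between genotypes in acetate. In 5xFAD acetate against GF, DESeq2 gave Gpd1 no adjusted p and called Gapdh, where it called 0.844% of all genes. DESeq2 also called 3 members in whole brain (5.63% of all genes) and 3 in cortex acetate against GF (3.09%), where edgeR called 2 in each. In 5xFAD GF against SPF it called 4 (3.53%), where edgeR called 3. Without a filter, 1 member was called between SPF genotypes, 1 in that interaction, and 1 and 6 between regions in GF and acetate. With a mean of at least 5 CPM, 1 was called in wild-type acetate against GF, 1 each between genotypes in SPF and GF, and 3 between regions in acetate. Fitting only the groups compared left 1 of 4 in cortical GF against SPF, Slc2a3. Without the 2 libraries with few genes detected, 1 was called in wild-type acetate against GF and 2 between SPF genotypes. Chosen after seeing the data, leaving out FAD_2152, WT_530 and WT_518 gave 1 in wild-type GF against SPF, 2 in acetate against GF, 7 in 5xFAD GF against SPF, 1 in 5xFAD acetate against SPF, 7 between SPF genotypes and 1 in the interaction; leaving out libraries with neutrophil markers gave 1 in 5xFAD GF against SPF and 1 between GF genotypes. For the fits other than DESeq2, the share of all genes called was not set beside these counts. From these counts alone, a move of a member count cannot be told from a move over all genes. The cause of these moves was not tested.

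With each library left out in turn, the count ran from 0 to 2 in whole brain (0 without SPF libraries 1 and 3, for example), 1 to 4 in cortical GF against SPF, 0 to 2 in cortical acetate against GF, 0 to 1 in wild-type acetate against GF, 1 to 5 and 0 to 1 in 5xFAD GF against SPF and acetate against GF, 0 to 6, 0 to 1 and 5 to 9 between genotypes in SPF, GF and acetate, 0 to 1 in the interaction with GF against SPF and 0 to 1 between regions in acetate, and stayed at 0 in the other comparisons. These counts, too, stand without the share of all genes called in the same fit. The replicate block, tried in whole brain where SPF and GF mice share only numbers, left 0 of 2 members called, and dropping the replicate block between regions left 0 in all 3. The shallow hippocampal libraries, with 5862940 and 5743890 counts in total, limit what SPF hippocampus can show for members near 1 CPM.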
